A study of Mus musculus with 70 samples.

Results

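The genes described are 10 that encode matricellular proteins: Spp1, Postn, Tnc, Tnn, Thbs1, Thbs2, Sparc, Cthrc1, Ccn2 and Spon2. They were taken by name from a gene count table, in which all 10 were found among 55011 genes. Matricellular proteins are secreted into the matrix around cells, where they bind integrins, CD44, syndecans and growth factors rather than bear load. Most are scarce in resting adult tissue and are made after wounding, in development and in fibrosis, and in skeletal muscle several are made by the fibroblast-like stromal cells that lie between the fibres. Osteopontin, the product of Spp1, is also a well known product of macrophages, and thrombospondin 1 is stored in platelet granules.

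The study measured polyadenylated RNA of mouse hindlimb muscle in 70 libraries, which form 28 groups in 6 experiments. In 5 of them the RNA came from cells sorted in 2 rounds: MmSCs, the study's mesenchymal stromal cells of muscle, and in one experiment also MuSCs (satellite cells), CD31+ cells and CD45+ cells. The cytokine experiment used MmSCs of uninjured C57BL/6J mice given by i.p. injection Il-1b, TNFa, oncostatin M (Osm) or Il-17A, each alone, 2 h before the cells were taken, or Osm with one of the other 3 (2 libraries a group). A mix of all 4 cytokines was given 2, 4 or 8 h before (2, 1 and 2 libraries), and PBS alone, with no hour in its label, was given to the controls (2 libraries). The compartment experiment set sorted cells of C57BL/6J muscle 1 day after cardiotoxin, a venom protein that destroys muscle fibres, against cells of uninjured muscle (3 libraries in each of 8 groups). Thy1.1+ and Thy1.1- MmSCs were taken 12 h after cardiotoxin from Il6RD mice, which carry an Il6 reporter that marks cells with Thy1.1 (3 libraries each), so both groups carry the reporter and both were injured. Il1b-KO MmSCs were set against MmSCs of Il1b-WT littermates, both 1 day after cardiotoxin (3 and 2 libraries). MmSCs of dystrophin-deficient mdx mice were taken at 2.5, 7 and 12.5 weeks of age (3, 3 and 2 libraries), with no injury and no wild-type mice beside them in that experiment. Whole tibialis anterior muscle was taken 7 days after cardiotoxin from C57BL/6J mice given anti-Cxcl5 or IgG (3 libraries each). Apart from the mdx ages, no ages were given in the labels used here. Whether the libraries of a group came from separate animals was not stated, so p-values measure the spread between these libraries.

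Libraries held between 2252373 and 8408842 counts. Summed over 10 MmSC markers, the level was 138810 to 172670 counts per 1000000 (CPM) in MmSCs of uninjured muscle, against 3394 to 5283 CPM in MuSCs and CD31+ cells and 518 to 654 CPM in CD45+ cells of the same experiment, and 34051 to 51622 CPM in MmSCs 1 day after injury. Il1b did little to check the knockout label, since it had 1 count over the 3 Il1b-KO libraries and 7 counts over the 2 Il1b-WT libraries. Il6 averaged 139 ± 130 CPM in Thy1.1+ cells and 44.1 ± 22.5 CPM in Thy1.1- cells (SD, n = 3 each). PBS replicate 1 stood apart from PBS replicate 2 in 3 of the genes described, with 215 against 11.02 CPM of Tnc, 40.2 against 3.13 CPM of Cthrc1 and 934 against 121 CPM of Postn. Its 6 tenocyte markers summed to 301 CPM, against 62.7 CPM in replicate 2, with Scx at 0 in both. Over the libraries given cytokines these sums ran from 19.1 CPM (mix at 8 h) to 791 CPM (Osm with TNFa). The part of these markers in the 3 genes was not tested. Comparisons of these 3 genes with PBS that were called with or without PBS replicate 1 are therefore given both ways.

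Spp1, Tnc and Tnn recur in the injury, reporter and mdx results given further on, and their promoters are shown to give the sequence around each start. They are from RefSeq (GRCm38.p6), 300 bases each, from 250 before to 50 after the RefSeq start. RefSeq windows were found by gene name for 6 of the 10 genes: Spp1, Postn, Tnc, Tnn, Thbs2 and Sparc. The RefSeq start of the nearest Sparc window lay 3103 bases from the annotated start of the gene, against 0 to 27 bases for the other genes found. Capitals mark matches, on either strand, to a TATA box (TATAAA), AP-1 (TGANTCA), RUNX (ACCACA), STAT (TTCNNNGAA) or TEAD (GGAATG) motif.
Spp1, chr5:104434861-104435160, plus strand: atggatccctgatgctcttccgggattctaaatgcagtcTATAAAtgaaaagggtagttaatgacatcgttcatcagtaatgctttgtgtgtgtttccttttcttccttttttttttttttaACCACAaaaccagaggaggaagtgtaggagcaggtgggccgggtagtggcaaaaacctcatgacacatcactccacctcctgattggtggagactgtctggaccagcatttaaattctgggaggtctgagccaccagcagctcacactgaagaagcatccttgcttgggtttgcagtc
Tnc, chr4:64046966-64047265, minus strand: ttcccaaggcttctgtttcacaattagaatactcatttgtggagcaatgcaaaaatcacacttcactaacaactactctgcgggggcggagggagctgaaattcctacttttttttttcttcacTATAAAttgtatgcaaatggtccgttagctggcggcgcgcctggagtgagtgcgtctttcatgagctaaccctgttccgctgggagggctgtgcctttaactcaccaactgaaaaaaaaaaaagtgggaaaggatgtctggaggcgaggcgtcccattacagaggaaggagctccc
Tnn, chr1:160153526-160153825, minus strand: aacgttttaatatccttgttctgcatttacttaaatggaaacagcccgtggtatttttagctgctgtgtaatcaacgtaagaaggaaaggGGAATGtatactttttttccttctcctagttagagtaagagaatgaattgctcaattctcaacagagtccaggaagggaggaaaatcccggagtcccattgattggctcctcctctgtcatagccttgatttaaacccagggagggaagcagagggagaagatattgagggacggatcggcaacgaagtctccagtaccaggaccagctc
The Spp1 window held TATAAA 211 bases and ACCACA 128 bases before its start. The Tnc window held TATAAA 126 bases before its start, and the Tnn window held GGAATG 160 bases before its start. Of 32851 RefSeq windows of this length, 13.6% held TATAAA, 7.81% TGANTCA, 16.8% ACCACA, 8.3% TTCNNNGAA and 14.7% GGAATG on either strand. The motif letters are therefore common, and a match describes the sequence alone.

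The genes differed widely in level and in the cells that held them. Per kilobase of exon, Sparc, a collagen-binding protein, was the highest of the 10 in MmSCs of uninjured muscle, at 4922 CPM per kb, followed by Spon2 (spondin 2, 75.4), Thbs2 (thrombospondin 2, 66.1) and Postn (periostin, 61.7 CPM per kb). Tnc (tenascin C) stood at 1.35 and Spp1 at 0.138 CPM per kb there. The order of Spon2, Thbs2 and Postn cannot be read, since their libraries overlap. In CD45+ cells 1 day after injury the order was led by Spp1, at 3799 CPM per kb, and Thbs1 (246 CPM per kb), with Sparc at 11.4 CPM per kb. In MmSCs of 7-week mdx mice Sparc (2438 CPM per kb) was followed by Postn (567), Thbs1 (329), Thbs2 (207), Cthrc1 (196), Tnc (160), Spp1 (105), Spon2 (27.5), Tnn (23.5) and Ccn2 (3.28 CPM per kb). Levels were scaled within each experiment and were not tested between experiments.

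**Figure D1:**
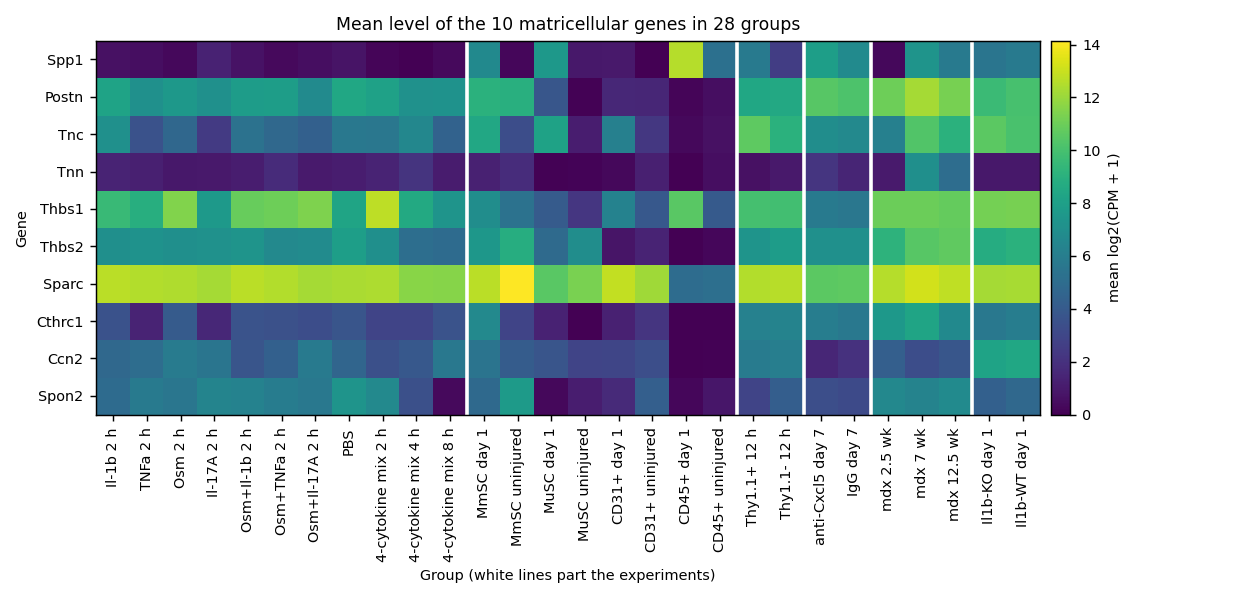
Colour gives the mean of log2(CPM + 1) of each of the 10 genes (rows) in the 28 groups (columns), with white lines between the 6 experiments. Sparc is bright in all groups but those of CD45+ cells, Spp1 is brightest in CD45+ cells at day 1 (6260.5 CPM), and Tnn stands out in mdx MmSCs at 7 weeks (137 CPM).

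The first question was which sorted compartment of uninjured muscle holds these transcripts. MmSCs held more than MuSCs of 9 of the 10 genes, with Spp1 the exception (edgeR quasi-likelihood test, 23.4% of all genes called higher at an adjusted p under 0.05). Against CD31+ cells 7 of the 10 were higher in MmSCs (24% of all genes called higher), namely Postn, Tnc, Thbs1, Thbs2, Sparc, Ccn2 and Spon2. Against CD45+ cells 9 were higher and Spp1 was lower (28.5% and 28.2% of all genes called higher and lower). The call for Tnc against CD31+ cells (log2 difference 1.38, adjusted p = 0.0498) is lost when any of 5 of the 6 libraries is left out, and that for Ccn2 without CD31+ replicate 2 or 3 or MmSC replicate 1 or 3 (adjusted p 0.0538 to 0.192) and with no filter on low counts (0.16). Against CD45+ cells the call for Tnn is lost without any one of the 6 libraries (adjusted p 0.0761 to 0.166), with DESeq2 (0.0627), with the replicate block (0.0557) and with no filter (0.126). The call for Thbs1 there is lost without CD45+ replicate 1 or 2 or MmSC replicate 3 (adjusted p 0.0534 to 0.0721).

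Postn, an integrin ligand that helps cross-link collagen, was the gene most confined to MmSCs in size of difference from MuSCs. It had 577, 764 and 270 CPM in MmSCs of uninjured muscle, against 0, 0 and 0.199 CPM in MuSCs, 1.51, 1.14 and 3.58 CPM in CD31+ cells and 0.721, 0.292 and 0.289 CPM in CD45+ cells. The MmSC and other libraries did not overlap. With 7945 counts over the 3 MmSC libraries and 1 count over the 3 MuSC libraries, the ratio was 7049.7 (95% counting interval 1265 to 278484). Against CD31+ cells the log2 difference was 8.04 (SE 0.59, edgeR adjusted p = 1.23e-10). Thbs2, a relative of thrombospondin 1 that in mice limits vessel growth and shapes collagen fibrils, had 582, 514 and 294 CPM in MmSCs, against 136, 119 and 116 CPM in MuSCs and at most 4.84 CPM in CD31+ and CD45+ cells. It was thus shared by the MmSC and MuSC libraries, with a log2 difference of 1.90 between them (SE 0.31, adjusted p = 3.70e-05).

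One day after cardiotoxin, 8 of the 10 genes changed in MmSCs: Spp1, Tnc, Cthrc1, Thbs1 and Ccn2 rose, and Spon2, Sparc and Thbs2 fell. Of all 16374 genes tested, 18.2% were called higher and 23.6% lower, and the median log2 change was -0.22, against 0.67 for the 10 genes. In MuSCs 6 rose and 1 fell, in CD31+ cells 2 rose and 1 fell, and in CD45+ cells 2 rose. The shares of all genes called higher and lower were 21.4% and 17.4% in MuSCs and 14.2% and 9.35% in CD31+ cells, and 15.9% were called higher in CD45+ cells. With DESeq2's size factors in place of TMM, the share of CD31+ calls that were higher moved by -11.9 percentage points to 48.4% and the median of all genes there by -0.11.

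Spp1 encodes osteopontin, a ligand of integrins and CD44. In MmSCs it had 311, 40.1 and 86.9 CPM at day 1, against 0, 0.683 and 0 CPM in uninjured muscle. All 3 injured libraries stood above all uninjured ones, though replicate 1 was far above the other two. The libraries held 2898 and 3 counts in all, a ratio of 772 (95% counting interval 264 to 3745, edgeR adjusted p = 5.57e-06). In MuSCs it had 335, 89.7 and 203 CPM at day 1, against 0, 0 and 5.96 CPM, a log2 change of 6.52 (SE 0.95, adjusted p = 1.39e-05). In CD45+ cells it had 7780, 6457 and 4545 CPM at day 1, against 28.1, 34.8 and 51.2 CPM, a log2 change of 7.36 (SE 0.85, adjusted p = 1.57e-06). The highest level of Spp1 in any group was thus in CD45+ cells after injury, while CD31+ cells had 4.07, 0.394 and 0 CPM, against 0 in all 3 uninjured libraries (adjusted p = 0.268). The 11 macrophage markers summed to 3.84 to 8.62 CPM in MmSCs at day 1, with C1qa, C1qc and Itgam at 0, against 14.9 to 23.2 CPM in uninjured MmSCs, with C1qc and Itgam at 0, and 1.97 to 3.10 CPM in MuSCs at day 1. In CD45+ cells all 11 were detected and summed to 24112 to 25333 CPM at day 1, against 21127 to 32145 CPM in uninjured muscle. The 6 neutrophil markers summed there to 5707 to 9146 CPM, against 926 to 3314 CPM. The part of the macrophage and neutrophil markers in the Spp1 results of any compartment was not tested.

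Tnc encodes tenascin C, a hexameric glycoprotein that modulates cell adhesion. It had 468, 288 and 327 CPM in MmSCs at day 1, against 4.08, 18.0 and 9.46 CPM in uninjured muscle. The groups did not overlap, and the log2 change was 5.13 (SE 0.45, edgeR adjusted p = 7.84e-09). In MuSCs it had 250, 387 and 231 CPM, against 0, 1.72 and 2.98 CPM (log2 change 7.53, SE 0.57, adjusted p = 8.10e-10). In CD31+ cells it had 84.7, 87.7 and 46.2 CPM, against 4.30, 3.41 and 3.87 CPM (log2 change 4.21, SE 0.50, adjusted p = 1.60e-06). CD45+ libraries held 3 counts at day 1 and 9 counts in uninjured muscle over 3 libraries each. The response of MmSCs exceeded that of CD45+ cells by 6.75 on the log2 scale (SE 1.81, adjusted p = 0.00759), against 25% of all genes called in that test of the difference, but without CD45+ uninjured replicate 1 it was 4.56 with an adjusted p of 0.502. Tnc lies on chromosome 4 at 63959785 to 64047015 (GRCm38, minus strand) and overlaps the antisense gene 8030451A03Rik. Thbs1 and Ccn2 also overlap antisense genes (Gm29233 and Gm15270), and Spp1 overlaps Gm42793 on its own strand. The sources used here do not give the strand setting, so reads of such overlapping genes may not be told apart. Tendon cells also make tenascin C, and the 6 tenocyte markers summed to 13.4 to 29.8 CPM in MmSCs at day 1, against 101 to 572 CPM in uninjured MmSCs. The part of these markers in the Tnc result was not tested.

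Cthrc1, a secreted protein of activated fibroblasts, had 74.9, 124 and 113 CPM in MmSCs at day 1, against 2.38, 8.20 and 12.8 CPM in uninjured muscle. The groups stood well apart, with a log2 change of 3.76 (SE 0.57, edgeR adjusted p = 5.54e-05). In CD31+ cells it had 1.25, 1.38 and 1.92 CPM, against 2.15, 2.84 and 7.15 CPM, and the responses of MmSCs and CD31+ cells differed by 5.11 (SE 0.94, adjusted p = 0.00188, 12.5% of all genes called). MuSCs held 43 counts at day 1, against 0 in uninjured muscle, at least 2.67-fold higher with a floor of 3 counts per library, and this call is lost without MuSC day 1 replicate 3 (adjusted p = 0.0739). No Cthrc1 count was found in any CD45+ library.

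Postn, in contrast, did not pass the test in MmSCs, with 580, 440 and 565 CPM at day 1, against 577, 764 and 270 CPM (log2 change -0.02). In MuSCs it had 7.43, 21.6 and 12.6 CPM at day 1, against 1 count over the 3 uninjured libraries, a ratio of 178 (95% counting interval 31.6 to 7039, edgeR adjusted p = 2.12e-05). The responses of MmSCs and MuSCs differed by -7.11 (SE 1.24, adjusted p = 0.000771), and 7.64% of all genes were called in that test. Postn in injured MuSCs remained far under the level in MmSCs.

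Thbs1 encodes thrombospondin 1, which activates latent TGF-b and binds CD36 and CD47. It rose in all 4 compartments, and by most in CD45+ cells, with 1613, 1515 and 1361 CPM at day 1, against 13.2, 8.18 and 29.2 CPM (log2 change 6.47, SE 0.40, edgeR adjusted p = 1.07e-10). In MmSCs it had 127, 109 and 130 CPM, against 29.6, 38.5 and 55.9 CPM, in MuSCs 19.0, 17.3 and 11.9 CPM, against 3.14, 3.77 and 4.57 CPM, and in CD31+ cells 66.7, 102 and 68.0 CPM, against 9.25, 26.2 and 10.7 CPM. The groups did not overlap in any compartment. The log2 changes were 1.57 in MmSCs (SE 0.32), 2.05 in MuSCs (SE 0.44) and 2.37 in CD31+ cells (SE 0.36), with adjusted p of 0.000427, 0.00073 and 2.77e-05. The response of MmSCs was smaller than that of CD45+ cells (log2 difference -4.91, SE 0.48, adjusted p = 1.56e-07). In CD45+ cells the 7 platelet markers summed to 2913 to 4393 CPM at day 1 (5 detected, Gp1bb and Gp6 at 0), against 524 to 1563 CPM in uninjured muscle (6 detected, Gp1bb at 0). The 12 immediate-early and dissociation genes summed to 20171 to 30517 CPM, against 4302 to 8599 CPM. The part of either list in the Thbs1 result was not tested.

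Thbs2 moved the other way. It had 146, 233 and 177 CPM in MmSCs at day 1, against 582, 514 and 294 CPM in uninjured muscle (log2 change -1.32, SE 0.30, edgeR adjusted p = 0.00129). In MuSCs it had 25.9, 41.5 and 21.7 CPM, against 136, 119 and 116 CPM (log2 change -2.07, SE 0.32, adjusted p = 2.89e-05). In neither compartment did the groups overlap. The thrombospondin genes Thbs1 and Thbs2 thus changed in opposite directions in the same libraries of both compartments, also under each alternative scaling.

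Sparc had 6306, 7185 and 6342 CPM in MmSCs at day 1, against 22636, 20365 and 12937 CPM in uninjured muscle. Every injured library lay under every uninjured one, and the log2 change was -1.50 (SE 0.37, edgeR adjusted p = 0.00235). In CD31+ cells it had 7963, 7090 and 7443 CPM, against 4189, 4512 and 4865 CPM, which did not overlap either but missed the threshold (log2 change 0.73, adjusted p = 0.161). The responses of MmSCs and CD31+ cells differed by -2.22 (SE 0.52, adjusted p = 0.00607). In CD45+ cells Sparc had 12.4, 26.4 and 91.0 CPM, against 45.2, 30.4 and 31.0 CPM. Replicate 3 at day 1 was the high one: without it the CD45+ log2 change was -0.83 (adjusted p = 0.0174), and the difference between MmSC and CD45+ responses, -1.78 with all libraries (adjusted p = 0.0173), was -0.50 (adjusted p = 0.298). The difference also missed the threshold without CD45+ uninjured replicate 2 or MmSC uninjured replicate 1 or 2 (adjusted p 0.0501 to 0.0614).

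Spon2, a secreted protein that in mice acts as a pattern recognition molecule and an integrin ligand, had 22.2, 37.7 and 23.8 CPM in MmSCs at day 1, against 319, 221 and 127 CPM in uninjured muscle. The groups did not overlap, and the log2 change was -3.00 (SE 0.58, edgeR adjusted p = 0.000228). In CD31+ cells it had 4.85, 0.394 and 3.05 CPM, against 35.7, 10.8 and 16.1 CPM (log2 change -2.88, SE 0.71, adjusted p = 0.00434). That call missed the threshold with DESeq2 (adjusted p = 0.063) and without CD31+ uninjured replicate 1 (adjusted p = 0.0511). Ccn2, also called connective tissue growth factor and a target of TGF-b and YAP, had 45.1, 40.2 and 43.4 CPM in MmSCs at day 1, against 17.2, 12.3 and 20.3 CPM (log2 change 1.37, SE 0.25, adjusted p = 0.000195). Its levels in CD31+ cells were 7.51, 7.49 and 5.29 CPM, against 11.8, 7.40 and 9.54 CPM, and the difference between the MmSC and CD31+ responses was 1.88 (SE 0.38, adjusted p = 0.00214). In MuSCs it rose by 0.90 (SE 0.28, adjusted p = 0.0134), but not without MuSC uninjured replicate 1 or MuSC day 1 replicate 3 (adjusted p = 0.0712 and 0.0561). Tnn, tenascin N, was at most 4.12 CPM in every library of the compartment experiment and was not called after injury in any compartment. Summed over the cells sorted, fewer cells with a transcript and less of it per cell cannot be told apart in these data.

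**Figure D2:**
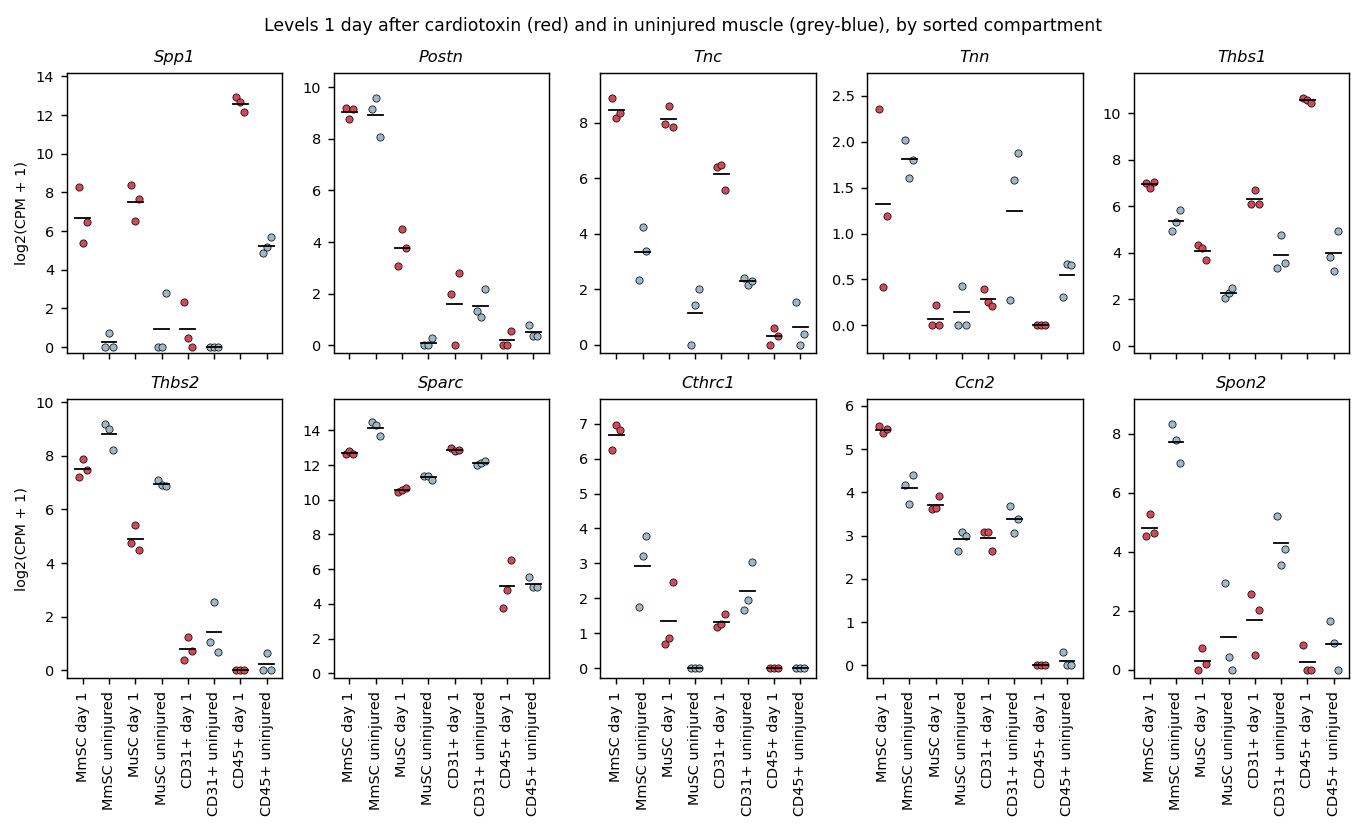
Points are libraries and bars are group means of log2(CPM + 1), with day 1 after cardiotoxin in red to the left of uninjured muscle in grey-blue, for MmSCs, MuSCs, CD31+ cells and CD45+ cells. Tnc rises in MmSCs, MuSCs and CD31+ cells and stays near 0 in CD45+ cells, whereas Spp1 reaches its highest level, 4545 to 7780 CPM, in CD45+ cells.

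The next question was what injected cytokines do to these genes in MmSCs of uninjured muscle. All comparisons with PBS share the same 2 PBS libraries. After 2 h of the 4-cytokine mix only Thbs1 rose and only Ccn2 fell among the 10 genes (20.5% and 18% of all 15965 genes called higher and lower), after 4 h 3 fell (16.8% of all genes called lower), and after 8 h Ccn2 rose and 5 fell (15.6% and 12.9% of all genes called higher and lower). The 4 h group is 1 library, assumed in the fit to vary like the other groups. Between 8 h and 2 h of the mix 5 genes differed in either direction (35.3% of all genes called), and these calls held without any one of the 4 libraries.

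Thbs1 had 7160 and 6381 CPM after 2 h of the mix, against 395 and 241 CPM after PBS. It had 380 CPM after 4 h, and 167 and 147 CPM after 8 h. The 2 h libraries stood above all other libraries of the experiment, and the 8 h libraries under both PBS libraries. The log2 change was 4.41 at 2 h (SE 0.37, edgeR adjusted p = 6.02e-09) and -5.43 at 8 h relative to 2 h (SE 0.39, adjusted p = 1.35e-09). At 8 h relative to PBS it was -1.02 (SE 0.33, adjusted p = 0.0245), a call lost without PBS replicate 1 (adjusted p = 0.273) or either 8 h library. The 12 immediate-early and dissociation genes summed to 3947 to 5688 CPM at 2 h, against 1182 to 1760 CPM after PBS, and to 2467 to 2863 CPM at 8 h. Their part in the Thbs1 result was not tested.

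Among single cytokines Osm gave 3374 and 2432 CPM of Thbs1 at 2 h, Il-1b 493 and 1158 CPM, TNFa 398 and 550 CPM and Il-17A 150 and 256 CPM, against 395 and 241 CPM after PBS. Both Osm libraries lay above those of the other single cytokines, and the Il-17A libraries overlapped those of PBS. Osm raised Thbs1 by 3.19 on the log2 scale (SE 0.35, edgeR adjusted p = 4.83e-07) and Il-1b by 1.37 (SE 0.33, adjusted p = 0.00284), and Osm exceeded Il-1b by 1.81 (SE 0.33, adjusted p = 0.00072, 9.65% of all genes called). The 12 immediate-early and dissociation genes summed to 2897 to 3185 CPM under Osm, against 1182 to 1760 CPM after PBS, and the 7 platelet markers to 42.7 to 47.3 CPM (1 detected), against 18.4 to 20.5 CPM (4 detected), and their part in the Thbs1 result was not tested. The Il-1b call is lost without Il-1b replicate 2 (log2 change 0.63, adjusted p = 0.149) or PBS replicate 2 (1.02, adjusted p = 0.071). The pairs gave 1667 and 2086 CPM for Osm with Il-1b, 1766 and 2387 CPM for Osm with TNFa and 2139 and 3463 CPM for Osm with Il-17A. The 3 pairs raised Thbs1 by 2.56, 2.705 and 3.14. With Il-1b the change was smaller than the sum of the single changes (interaction log2 value -2.00, SE 0.46, adjusted p = 0.00503, 15.8% of all genes called).

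Ccn2 had 11.4 and 8.81 CPM after 2 h of the mix, 13.9 CPM after 4 h and 56.9 and 42.7 CPM after 8 h, against 23.0 and 23.1 CPM after PBS. It was thus under PBS at 2 h and above it at 8 h. The log2 changes were -1.19 at 2 h (SE 0.35, edgeR adjusted p = 0.00956) and 1.11 at 8 h (SE 0.31, adjusted p = 0.0101), and 2.302 between 8 h and 2 h (SE 0.34, adjusted p = 2.07e-05). The 2 h call is lost without the second 2 h library (adjusted p = 0.0834), and the 8 h call without either PBS library or the first 8 h library (adjusted p 0.0616 to 0.115). Osm alone gave 47.5 and 71.9 CPM (log2 change 1.37, SE 0.31, adjusted p = 0.00176) and Osm with Il-17A 47.4 and 64.8 CPM (1.28, SE 0.31, adjusted p = 0.00297). Osm with Il-1b gave 11.3 and 13.9 CPM, and Osm with TNFa 22.0 and 16.2 CPM, all under the libraries of Osm alone. The interaction values were -2.54 for Il-1b (SE 0.47, adjusted p = 0.000827) and -2.12 for TNFa (SE 0.45, adjusted p = 0.00801, 5.91% of all genes called), and no member passed the interaction test for Il-17A (2.56% of all genes called). Without Osm replicate 2 the value for TNFa was -1.77 and missed the threshold (adjusted p = 0.0502).

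Spon2 was under both PBS libraries in every library of every treatment, and the change passed the test at 2 h for all treatments but the mix and Il-17A alone (136 and 51.1 CPM). It had 127 and 79.5 CPM after 2 h of the mix, 10.1 CPM after 4 h and 0.598 and 0 CPM after 8 h, against 159 and 157 CPM after PBS. The mix libraries were thus lower at each later time. At 8 h the log2 change from PBS was -8.83 (SE 0.70, edgeR adjusted p = 9.13e-09) and from 2 h of the mix -8.22 (SE 0.71, adjusted p = 1.71e-08). At 2 h Il-1b gave 31.6 and 28.6 CPM (log2 change -2.39, SE 0.41, adjusted p = 0.000117), TNFa 60.3 and 50.1 CPM (-1.52) and Osm 32.0 and 67.9 CPM (-1.66). Of these calls that for TNFa is lost without TNFa replicate 2 (adjusted p = 0.109) and that for Osm without Osm replicate 1 (0.0571). That for Osm with TNFa is lost without its own replicate 2 (0.145), and that for Osm with Il-17A without its own replicate 1 (0.0529). Osm with Il-1b gave 70.4 and 83.9 CPM (-1.04), above Il-1b alone, with an interaction value of 3.02 (SE 0.57, adjusted p = 0.000932). For Osm with TNFa the interaction value was 1.88 (adjusted p = 0.0491), and it missed the threshold with DESeq2 (adjusted p = 0.114), with the replicate block (0.0528) and without either PBS library, either TNFa library, Osm replicate 1 or Osm with TNFa replicate 1 (0.0847 to 0.249). The call for Osm with Il-1b against PBS is lost without any one of its 4 libraries and with DESeq2 (adjusted p 0.0838 to 0.173).

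Thbs2 and Sparc were called lower after 4 and 8 h of the mix and not after 2 h. Thbs2 had 153 and 115 CPM after 2 h of the mix, 33.1 CPM after 4 h and 20.8 and 43.3 CPM after 8 h, against 271 and 225 CPM after PBS. The 2 h libraries already lay under both PBS libraries. Its log2 changes were -2.90 at 4 h (edgeR adjusted p = 0.000396) and -2.96 at 8 h (SE 0.43, adjusted p = 2.06e-05). Sparc had 6115 and 4818 CPM at 2 h, 3180 CPM at 4 h and 2836 and 3217 CPM at 8 h, against 5458 and 5007 CPM after PBS, with a log2 change of -0.79 at 8 h (SE 0.18, adjusted p = 0.00185). The 2 h libraries of Sparc spanned those of PBS, and its call at 4 h is lost without PBS replicate 1 (adjusted p = 0.0556). Thbs2 was also called lower at 2 h with Osm and TNFa, at 153 and 65.9 CPM, and with Osm and Il-17A, at 127 and 95.9 CPM. Both calls are lost with DESeq2 (adjusted p = 0.0603 and 0.0682), without PBS replicate 1 (0.111 and 0.121) and without Osm with TNFa replicate 2 (0.263) or either Osm with Il-17A library (0.0626 and 0.159).

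Calls of Tnc, Cthrc1 and Postn against PBS rested on PBS replicate 1. TNFa gave 17.9 and 6.65 CPM of Tnc and 2.51 and 0.990 CPM of Cthrc1, against 215 and 11.02 CPM and 40.2 and 3.13 CPM after PBS. With all libraries TNFa lowered Tnc by a log2 value of -3.20, Cthrc1 by -3.61, Postn by -1.97 and Spon2 by -1.52 (4.62% of all genes called lower), and Il-17A lowered Tnc by -4.46 and Cthrc1 by -3.43 (2.11% of all genes called lower). Without PBS replicate 1 the TNFa values were 0.15 for Tnc, -0.84 for Cthrc1 and 0.13 for Postn, the Il-17A values -1.10 and -0.63, and none of the 5 passed (edgeR adjusted p 0.638 to 0.96). Postn was called lower with Osm and Il-17A (log2 change -2.26, adjusted p = 0.00747) and after 8 h of the mix (-1.69, adjusted p = 0.0444), and without PBS replicate 1 the values were -0.16 (adjusted p = 0.857) and 0.43 (adjusted p = 0.631). Calls also appeared without that library, for Tnc under Il-1b (3.84, adjusted p = 0.0138, against 0.51 and 0.703 with all libraries) and for Cthrc1 under Osm (2.32, adjusted p = 0.0385, against -0.45 and 0.67). Il-1b gave 251 and 71.6 CPM of Tnc and 25.9 and 4.06 CPM of Cthrc1, above TNFa by 3.70 (adjusted p = 0.0235) and 3.07 (adjusted p = 0.033) on the log2 scale, with no PBS library in that comparison (10.3% of all genes called). Both are lost without Il-1b replicate 1 (2.53, adjusted p = 0.205, and 1.19, adjusted p = 0.591). The tenocyte markers summed to 478 and 273 CPM in the Il-1b libraries and to 286 and 302 CPM in the TNFa libraries. Their part in these differences was not tested. The other shares of genes called in either direction were 33.1% for Il-1b, 34.3% for Osm, 41.9% for Osm with Il-1b, 37% for Osm with TNFa and 35.6% for Osm with Il-17A, under which 2, 3, 2, 3 and 5 of the 10 genes were called.

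**Figure D3:**
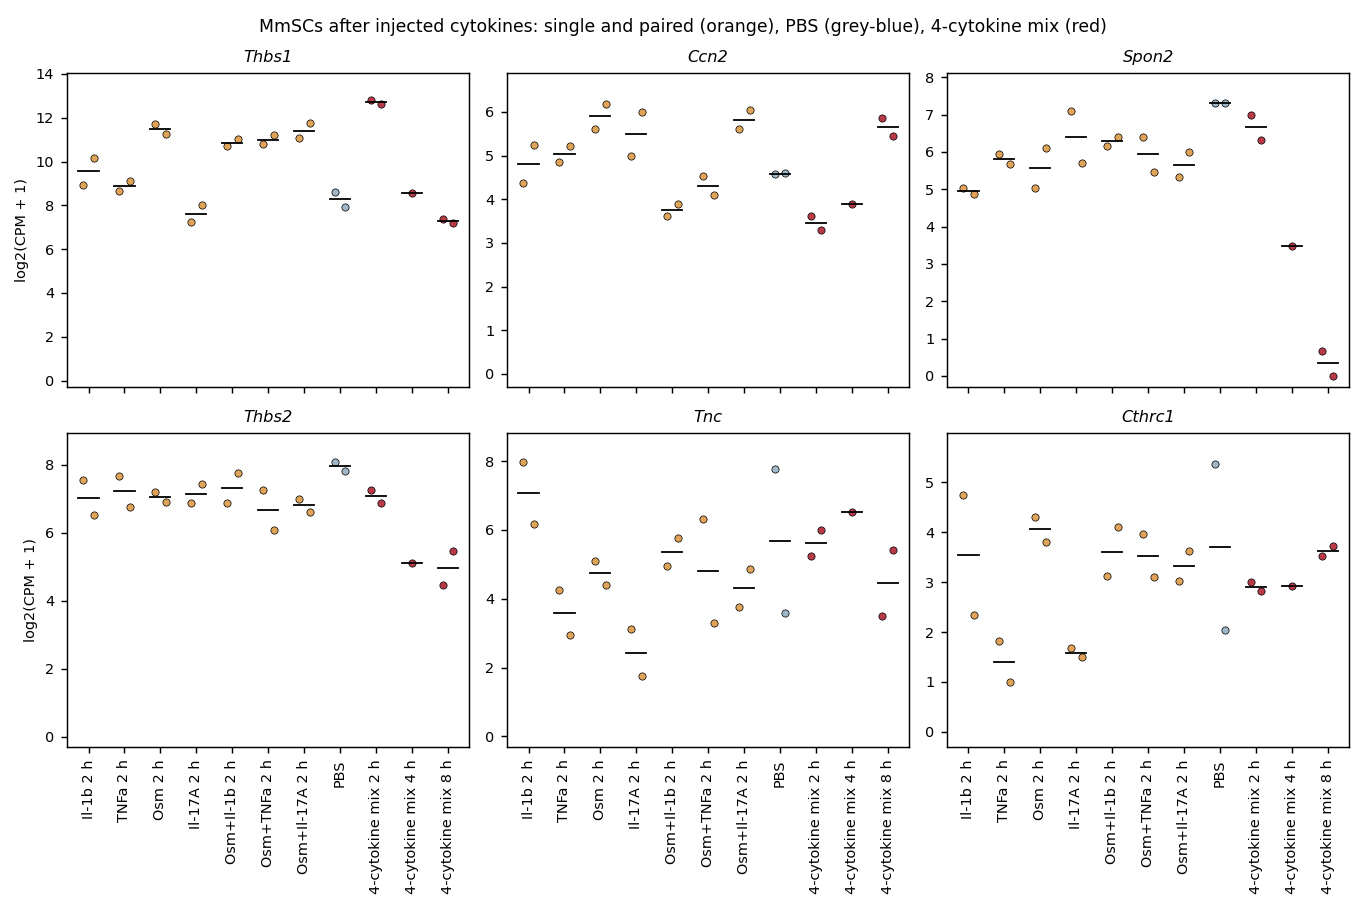
Points are libraries and bars are group means of log2(CPM + 1) for Thbs1, Ccn2, Spon2, Thbs2, Tnc and Cthrc1 in MmSCs, with single and paired cytokines in orange, PBS in grey-blue and the mix at 2, 4 and 8 h in red. Thbs1 peaks at 2 h of the mix, Spon2 is near 0 at 8 h, and the PBS libraries stand far apart in Tnc (215 and 11.02 CPM) and Cthrc1.

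The reporter experiment asked which transcripts mark MmSCs that switch on Il6. Thy1.1+ cells had more Tnc and Spp1 than Thy1.1- cells in each of the 3 pairs of libraries with the same replicate number. Tnc had 1601, 1632 and 1491 CPM in Thy1.1+ cells, against 666, 603 and 361 CPM in Thy1.1- cells, and Spp1 79.1, 58.2 and 36.9 CPM, against 1.90, 16.6 and 3.00 CPM. The groups did not overlap in either gene. With no pairing none of the 10 genes passed (edgeR, 0% of 11975 genes called, 1258 of them at an unadjusted p under 0.05, and 172 genes called by DESeq2): the log2 difference was 1.53 for Tnc (SE 0.24, adjusted p = 0.174) and 3.00 for Spp1 (SE 0.73, adjusted p = 0.278). The titles do not state that libraries with the same replicate number are pairs. With that number as a block, edgeR called 10.7% of genes, and Tnc rose by 1.58 (adjusted p = 9.47e-06) and Spp1 by 3.24 (adjusted p = 0.000354). DESeq2 without the block also called both (adjusted p = 6.56e-06 and 0.00188).

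Thbs2 and Spon2 were called lower in Thy1.1+ cells with the block. Without it neither passed in edgeR with the filter on low counts or in DESeq2. Thbs2 had 121, 133 and 251 CPM in Thy1.1+ cells, against 186, 194 and 303 CPM in Thy1.1- cells (blocked edgeR log2 difference -0.48, adjusted p = 0.0143). Spon2 had 4.33, 24.1 and 1.94 CPM, against 27.3, 57.5 and 3.00 CPM (-1.62, adjusted p = 0.00467). Each pair went the same way in both genes, while the groups overlapped. Thbs1 was high in replicate 3 of both groups, at 2071 CPM in Thy1.1+ cells and 1465 CPM in Thy1.1- cells, and so was Ccn2, at 125 and 139 CPM. Tnn did not pass the filter on low counts here. Macrophage markers summed to 12.5 to 14.6 CPM in Thy1.1+ cells and 10.1 to 17.4 CPM in Thy1.1- cells, and tenocyte markers to 16.1 to 27.6 and 19.2 to 131 CPM. Neutrophil markers summed to 0.413 to 5.90 CPM in Thy1.1+ cells and 0.158 to 0.465 CPM in Thy1.1- cells. The part of these lists in the reporter results was not tested.

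**Figure D4:**
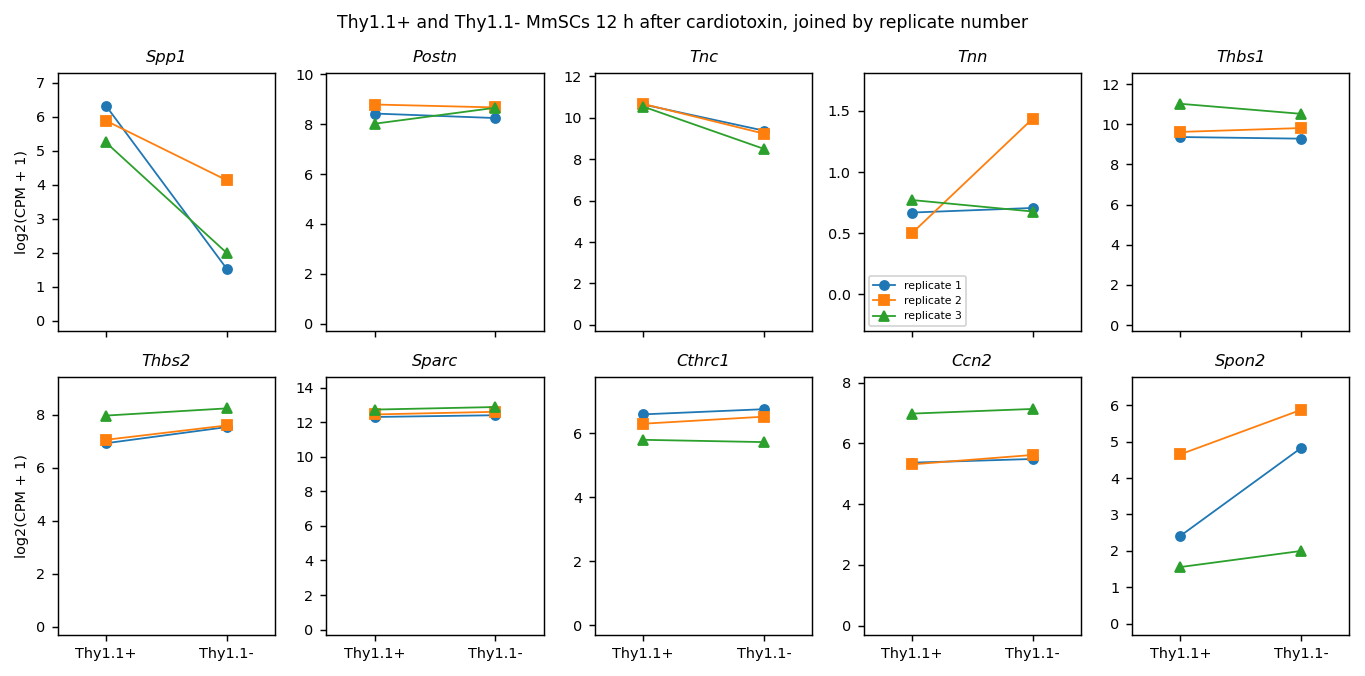
Each line joins the log2(CPM + 1) of Thy1.1+ MmSCs (left) and Thy1.1- MmSCs (right) with the same replicate number, for the 10 genes. Spp1 and Tnc slope down to Thy1.1- cells in all 3 pairs, and replicate 3 is apart from the other 2 in Thbs1 and Ccn2.

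In the Il1b experiment Tnc was the only one of the 10 genes called, with 1620, 1613 and 1446 CPM in Il1b-KO MmSCs 1 day after injury, against 1128 and 1074 CPM in Il1b-WT MmSCs. All knockout libraries lay above both wild-type ones, and the log2 difference was 0.50 (SE 0.08, edgeR adjusted p = 0.0239, with 1.21% of 12102 genes called). It missed the threshold without any one of the knockout libraries (adjusted p 0.0572 to 0.158). Spp1 had 52.8, 46.5 and 35.4 CPM in Il1b-KO MmSCs, against 72.5 and 44.0 CPM in Il1b-WT MmSCs, and Thbs1 2348, 2315 and 2271 CPM, against 2335 and 2439 CPM. Both genes overlapped between the groups, with log2 differences of -0.37 for Spp1 (SE 0.22) and -0.05 for Thbs1 (SE 0.07). Postn passed only without wild-type replicate 1 (log2 difference -0.64, adjusted p = 0.0113, against -0.40 and 0.376 with all libraries). Tnn did not pass the filter on low counts.

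In mdx MmSCs 7 of the 10 genes were higher at 7 than at 2.5 weeks and Ccn2 was lower (21.9% and 22.7% of all 13160 genes called higher and lower). The median log2 change was 0.97 for the 10 genes, against -0.02 for all genes. Between 7 and 12.5 weeks 5 fell and none rose (2.39% of all genes called lower). Between 2.5 and 12.5 weeks 4 were higher and 1 was lower (13.9% and 12.4% of all genes called higher and lower).

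Tnn had 1.37, 0.390 and 1.43 CPM at 2.5 weeks, 121, 104 and 186 CPM at 7 weeks and 47.0 and 22.7 CPM at 12.5 weeks. In no library outside 7 and 12.5 weeks did it pass 7.21 CPM. Its log2 change was 6.98 from 2.5 to 7 weeks (SE 0.40, edgeR adjusted p = 1.76e-08) and -1.95 from 7 to 12.5 weeks (SE 0.30, adjusted p = 0.00225). Spp1 had 0.976, 0 and 0 CPM at 2.5 weeks, 119, 120 and 282 CPM at 7 weeks and 59.3 and 54.3 CPM at 12.5 weeks. Its log2 change from 2.5 to 7 weeks was 8.93 (SE 0.56, adjusted p = 3.75e-08), and the ages did not overlap. From 7 to 12.5 weeks it was -1.61 (adjusted p = 0.0139), which DESeq2 did not call (adjusted p = 0.234).

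Tnc had 36.3, 85.7 and 117 CPM at 2.5 weeks, 1245, 1176 and 1312 CPM at 7 weeks and 455 and 618 CPM at 12.5 weeks. All 7-week libraries lay above those of both other ages. The log2 change was 3.96 from 2.5 to 7 weeks (SE 0.30, edgeR adjusted p = 2.02e-07) and -1.22 from 7 to 12.5 weeks (SE 0.31, adjusted p = 0.0296), a call lost with DESeq2 (adjusted p = 0.114) and without any one library. The 6 tenocyte markers summed to 16.0 to 108 CPM at 2.5 weeks, 309 to 447 CPM at 7 weeks and 718 to 797 CPM at 12.5 weeks (Scx at 0 at the later ages), and the 8 mural markers to 71.9 to 111, 180 to 239 and 171 to 187 CPM. The 12 immediate-early and dissociation genes summed to 8488 to 12021, 4271 to 5118 and 5955 to 6123 CPM at the 3 ages, and the 10 MmSC markers to 43864 to 53478, 24733 to 32564 and 70135 to 73615 CPM. The part of these lists in the changes of the 10 genes was not tested. The 11 macrophage markers summed to 27.3 to 41.7, 16.7 to 19.5 and 14.5 to 15.2 CPM at the 3 ages, and their part was not tested either.

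Postn had 1897, 2758 and 1731 CPM at 2.5 weeks, 5390, 4199 and 5212 CPM at 7 weeks and 2592 and 2306 CPM at 12.5 weeks, with log2 changes of 1.21 (SE 0.16, edgeR adjusted p = 4.23e-05) and -1.01 (SE 0.18, adjusted p = 0.00571). Cthrc1 had 171, 224 and 166 CPM, 341, 236 and 360 CPM, and 113 and 98.1 CPM at the 3 ages, with changes of 0.74 (SE 0.16, adjusted p = 0.00216) and -1.56 (SE 0.19, adjusted p = 0.000601). Both peaked at 7 weeks. Thbs2 rose from 2.5 to 7 weeks by 1.37 (SE 0.15, adjusted p = 5.25e-06) and did not pass between 7 and 12.5 weeks (log2 change 0.22, adjusted p = 0.462), with 479, 567 and 632 CPM, 1338, 1307 and 1702 CPM, and 1903 and 1477 CPM. Sparc rose by 0.60 (SE 0.15, adjusted p = 0.00424). Thbs1 was level, with 1894 to 2145 CPM at 2.5 weeks, 1921 to 2064 CPM at 7 weeks and 1675 to 1887 CPM at 12.5 weeks (log2 change -0.03 from 2.5 to 7 weeks, SE 0.11). Ccn2 had 30.4, 15.0 and 13.4 CPM at 2.5 weeks and 6.49, 12.5 and 9.16 CPM at 7 weeks (log2 change -1.07, adjusted p = 0.014), and this fall did not pass without 2.5-week replicate 1 (-0.62, adjusted p = 0.102) or 7-week replicate 1 (-0.85, adjusted p = 0.0753).

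**Figure D5:**
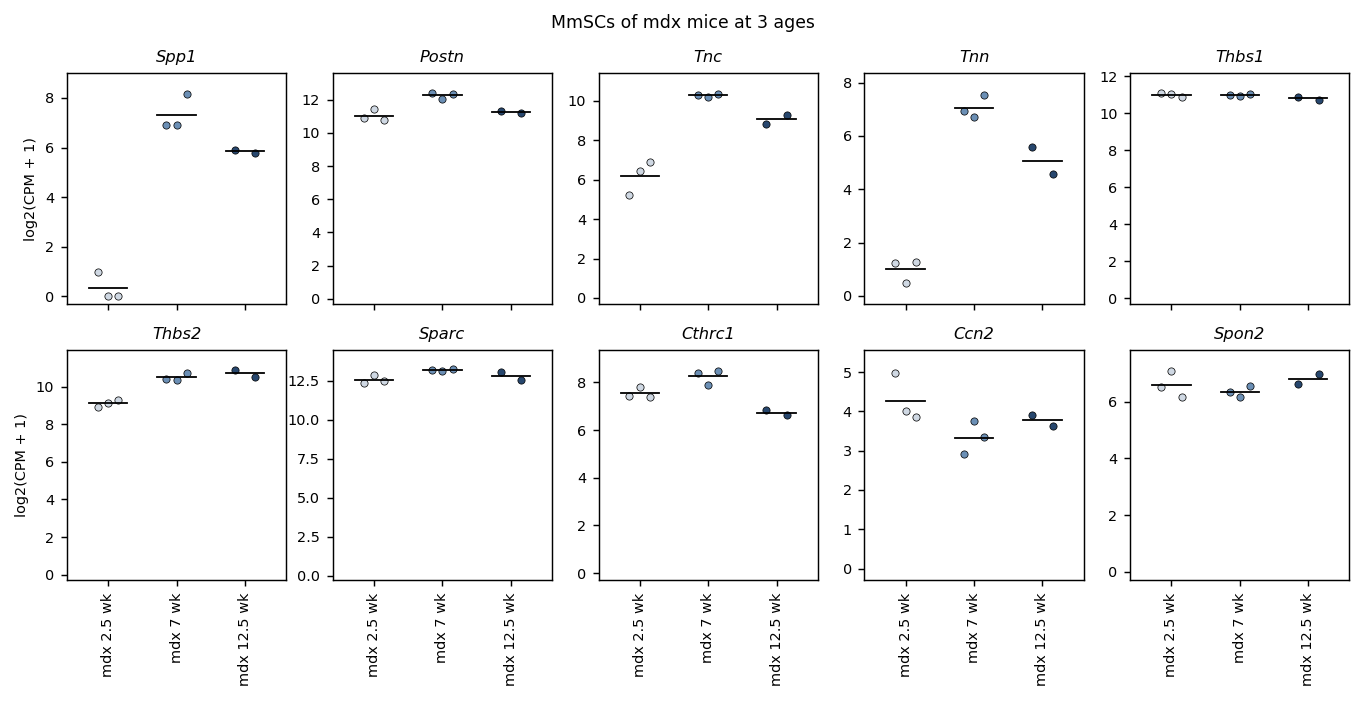
Points are libraries and bars are group means of log2(CPM + 1) of the 10 genes in mdx MmSCs at 2.5, 7 and 12.5 weeks. Spp1, Tnc and Tnn are low at 2.5 weeks and highest at 7 weeks, and Thbs1 stays between 1675 and 2145 CPM.

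In whole muscle 7 days after cardiotoxin none of the 10 genes passed the test between anti-Cxcl5 and IgG (edgeR, 0.03% of 13346 genes called, 4 genes, against 770 at an unadjusted p under 0.05 and 6 genes called by DESeq2). Spp1 had 112, 779 and 159 CPM with anti-Cxcl5, against 80.9, 93.5 and 163 CPM with IgG (log2 difference 1.65, SE 0.60, adjusted p = 0.832). The 779 CPM of anti-Cxcl5 replicate 2 stood alone, and the other libraries overlapped. Macrophage markers summed to 3101 CPM in that library, against 2193 and 2341 CPM in the other anti-Cxcl5 libraries and 1600 to 2070 CPM with IgG. Their part in the Spp1 level was not tested. Postn had 1552, 1324 and 1383 CPM, against 958, 942 and 1715 CPM.

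Of genes of the same and neighbouring families, listed with earlier results of these data known, 26 others encode matricellular or related matrix proteins, and 23 of them were tested in the compartment experiment. In MmSCs after injury 3 rose and 13 fell, with a median log2 change of -1.81, against -0.22 for all genes, of which 18.2% and 23.6% were called higher and lower. Ccn4, a CCN family member, rose by 3.10, while Ccn3, of the same family, fell by 3.62 and Fbln5 (fibulin 5, an elastic fibre protein) fell by 3.17 on the log2 scale. In mdx MmSCs at 7 against 2.5 weeks 10 rose and 11 fell of 23 tested (21.9% and 22.7% of all genes), with Ccn5 at 4.74, Fbln7 at 4.18 and Ccn4 at 3.74. After 8 h of the mix 1 rose (Ccn3, 1.43) and 10 fell of 24 tested (15.6% and 12.9% of all genes), among them Ccn4 (-2.35) and Tgfbi (-1.50). Ccn3 and Ccn4 thus moved in opposite directions in MmSCs after injury and after 8 h of the mix.

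Receptors of these proteins numbered 19. The shares of all genes called higher and lower, against which the counts of the next lists stand, were 18.2% and 23.6% in MmSCs after injury, 20.5% and 18% after 2 h of the mix and 21.9% and 22.7% in mdx MmSCs at 7 against 2.5 weeks. In MmSCs after injury 4 rose and 10 fell of 19 tested, with Sdc1 (syndecan 1) at 2.94, Cd44 at 2.41 and Itga5 (integrin alpha 5) at 1.90, and Itgb5 (integrin beta 5) at -1.84. After 2 h of the mix 7 rose and 1 fell of 18 tested, with Sdc4 (syndecan 4) at 4.04, Cd44 at 3.74 and Itga5 at 2.76. At 7 against 2.5 weeks in mdx MmSCs 7 rose and 4 fell of 17 tested, with Sdc1 at 4.18 and Cd44 at 1.35. Of 18 TGF-b ligands, receptors and targets, 3 rose and 8 fell in MmSCs after injury, with Ltbp2 at 4.99, Tgfb2 at -2.12 and Tgfb3 at -2.02, while 7 rose and 6 fell in mdx MmSCs at 7 against 2.5 weeks, with Inhba at 4.94. Of 16 further genes of the YAP and TAZ pathway, 2 rose and 5 fell in MmSCs after injury, Ccn1 rising by 1.66 and Amotl1 falling by 1.24 on the log2 scale.

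Over the 26 groups of sorted cells the genes whose group means followed each member most closely were found among 8592 genes by Pearson's r of log2 CPM, as a description. For Tnc they were Adam12 (r = 0.927), Ltbp2 (0.903) and Fosl1 (0.878), and for Thbs1 Itga5 (0.913), Ywhag (0.909) and Far1 (0.889). For Sparc they were Ppic (0.980), Amotl1 (0.967) and Slc2a10 (0.966), for Postn Vasn (0.973), Rbp4 (0.949) and Chrdl1 (0.948), and for Cthrc1 Postn (0.869), Vasn (0.863) and Lox (0.839). For Spp1 they were Cstb (0.908), Tns3 (0.898) and Vcpkmt (0.883). For Thbs2 they were Epb41l3 (0.947), Rian (0.938) and Pcdh7 (0.938), for Spon2 Efhd1 (0.937), Wfdc1 (0.916) and Kazald1 (0.905), and for Ccn2 the closest was Ccdc127 (0.854). The groups share experiments and cell types, so the points are not independent. Tnn, low in most groups, reached only 0.787 (Depdc5), 0.707 (Masp1) and 0.704 (Erlec1).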

How the data were processed

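The authors deposited one table of read counts per gene, with reads aligned by STAR 2.7.3a and counted by featureCounts to mouse mm10, per the submitters' processing notes. Annotation and strand setting: not given in the sources used here. Positions and exon lengths are from GENCODE M21 (GRCm38). Samples were grouped by their labels. Each experiment was fitted apart with edgeR 4.0.16 (R 4.3.3): genes passing filterByExpr (minimum count 10), TMM factors, group means, the quasi-likelihood test over 11975 to 16374 genes, Benjamini-Hochberg adjustment, and calls at an adjusted p under 0.05. Levels are CPM with TMM-scaled totals, and a standard error is the log2 change over the root of F. The fit was tested on data simulated for the cytokine, compartment and mdx experiments only, with the same spread for all genes. DESeq2 1.42.0, other size factors, no filter, a replicate block, Il-17A libraries in place of PBS, unscaled CPM and each library left out were tried. Replicates differed beyond counting noise (chi-square per degree of freedom 4.23 to 56.0), so none was merged, and intervals on counts cover counting error only. Libraries held 2252373 to 8408842 counts, and a floor of 3 counts per library was used for genes at 0. Replicate numbers were taken to pair Thy1.1+ and Thy1.1- libraries, which the titles do not state. Deviations of same-numbered libraries from the group means correlate at 0.358 to 0.618. Replicate 3 stood apart in both groups, with a chi-square per degree of freedom of 33.4 to 56.0 against replicates 1 and 2. Replicates 1 and 2 gave 8.39 and 9.66 against each other, so the correlations do not settle how these are paired. The members, lists and the rule for named genes (the 10 members, and up to 4 genes with the smallest p of each other list, and for each member the 3 genes of highest correlation) were chosen with earlier results of these data known.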

Additional observations from a re-analysis of the deposited data

Results flagged for a closer look

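The response of a gene differed between groups, by a test of the difference itself (edgeR quasi-likelihood test, adjusted over all genes), in 12 cases. When Osm was given with Il-1b, the change from PBS departed from the sum of the single changes by -2.00 on the log2 scale for Thbs1, -2.54 for Ccn2 and 3.02 for Spon2. With TNFa the departure was -2.12 for Ccn2 and 1.88 for Spon2, the value for Spon2 missing the threshold with DESeq2 (adjusted p = 0.114), with the replicate block (0.0528) and without any of 6 libraries (0.0847 to 0.249). The value for Ccn2 missed it without Osm replicate 2 (adjusted p = 0.0502). The change of MmSCs after injury differed from that of MuSCs by -7.11 for Postn. It differed from that of CD31+ cells by -2.22 for Sparc, 5.11 for Cthrc1 and 1.88 for Ccn2. It differed from that of CD45+ cells by 6.75 for Tnc, -4.91 for Thbs1 and -1.78 for Sparc, where the call for Tnc is lost without CD45+ uninjured replicate 1 (adjusted p = 0.502) and that for Sparc without any of 4 libraries (adjusted p 0.0501 to 0.298).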

How the results depend on the processing

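The direction of a called value changed only where PBS replicate 1 or CD45+ day 1 replicate 3 was left out or the Il-17A libraries stood in for PBS, and the cause was not tested. With Il-17A libraries standing in for PBS, log2 values turned to 3.26, 4.15, 1.27, 3.02 and 3.11 for Tnc (mix at 2 and 4 h, TNFa, Osm with Il-1b, Osm with TNFa), 0.24 for Postn (mix at 8 h), and 2.49, 2.89, 2.97, 2.56 and 2.46 for Cthrc1 (mix at 8 h, Il-1b, Osm, Osm with Il-1b, Osm with TNFa). With 1 library left out, Postn ranged from -2.52 to 0.43 for the mix at 8 h and from -2.82 to 0.13 for TNFa, Tnc from -4.14 to 0.15 for TNFa, Cthrc1 from -1.36 to 2.32 for Osm, and Sparc in CD45+ cells after injury from -0.83 to 0.77.

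Counts of the 10 genes called also moved. Without the filter on low counts they were 7 for the mix at 2 h, 5 at 4 h, 5 for Il-1b, 6 for Osm, 7 for Il-17A, 7 for Osm with Il-1b, 6 for Osm with TNFa, 5 for Osm against Il-1b, 5 for Il-1b against TNFa, 5, 6 and 5 for the interactions of Osm with Il-1b, TNFa and Il-17A, 6 for injury in CD31+ cells, 5 for MmSC against MuSC responses, 3 for Thy1.1+ against Thy1.1- cells, 1 for anti-Cxcl5 and 2 for Il1b-KO. These unfiltered counts rest on small standard errors. For Postn at 2 h of the mix it was 0.157, although the PBS libraries had 934 and 121 CPM. For Tnc at 8 h it was 0.208, with PBS libraries at 215 and 11.02 CPM. The added calls are therefore not read as further responses. With Il-17A libraries standing in for PBS the counts were 5 for the mix at 4 h, 4 for Il-1b, 1 for TNFa, 4 for Osm with Il-1b and 1 for Osm with Il-17A. DESeq2 called 2 for TNFa, 1 for the interaction of Osm and TNFa, 2 for Thy1.1+ cells and 3 for mdx at 12.5 against 7 weeks. The replicate block gave 1 for the interaction of Osm and TNFa, 4 for Thy1.1+ cells and 0 for Il1b-KO. With each library left out in turn, counts ranged from 1 to 4 for the mix at 2 h, 2 to 5 at 4 h, 3 to 7 at 8 h, 1 to 3 for Il-1b, 0 to 4 for TNFa, 2 to 5 for Osm, 0 to 3 for Il-17A, 1 to 4 for Osm with Il-1b, 1 to 6 for Osm with TNFa, 2 to 7 for Osm with Il-17A, 1 to 2 for Osm against Il-1b, 0 to 2 for Il-1b against TNFa, 1 to 4 for the interaction of Osm and TNFa, 1 to 2 for MmSC against MuSC responses, 2 to 4 and 4 to 8 for mdx at 12.5 against 7 and 2.5 weeks, and 0 to 2 for Il1b-KO. A group left with 1 library was assumed to vary like the others.

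Over all genes, counts of calls moved by over 1.5 times for the interaction of Osm and Il-17A (409, against 615 with DESeq2 and 670 without the filter), TNFa (2361, against 993 with Il-17A as reference), Thy1.1+ cells (0, against 172, 360 and 1286 with DESeq2, no filter and the block), anti-Cxcl5 (4, against 159 without the filter and 0 with the block) and Il1b-KO (146, against 248 with DESeq2 and 594 without the filter). Replicate numbers outside the Thy1.1 libraries correlated at -0.0995 to 0.0868 and name libraries only. With the block a gene's call was gained in 6 cases and lost in 5, 2 of the lost ones being Tnc in Il1b-KO (adjusted p = 0.106) and Postn after 8 h of the mix (adjusted p = 0.0795).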

Other observations

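MmSCs 1 day after cardiotoxin were sorted in 2 of the experiments, and the levels of several genes differed widely between them. Thbs1 had 2335 and 2439 CPM in the Il1b-WT libraries, against 127, 109 and 130 CPM in the MmSC libraries of the compartment experiment. Tnc had 1128 and 1074 CPM, against 468, 288 and 327 CPM, and Ccn2 255 and 479 CPM, against 45.1, 40.2 and 43.4 CPM. Spp1 overlapped, with 72.5 and 44.0 CPM, against 311, 40.1 and 86.9 CPM. The 12 immediate-early and dissociation genes summed to 4187 to 4873 CPM in the Il1b-WT libraries, against 2229 to 2729 CPM, and the 6 tenocyte markers to 552 to 929 CPM, against 13.4 to 29.8 CPM. Genotype, experiment and sort cannot be told apart between these groups, and no test was made.

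Uninjured MmSCs differed likewise. Thbs1 had 395 and 241 CPM after PBS, against 29.6, 38.5 and 55.9 CPM in uninjured MmSCs of the compartment experiment, while Sparc had 5458 and 5007 CPM, against 22636, 20365 and 12937 CPM. The uninjured Sparc libraries from which the fall after injury was measured thus lay above both PBS libraries. Experiment, injection and sort cannot be told apart between these groups, and no test was made.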
